A study of Rattus norvegicus with 18 samples.

Results

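CDEB is 1 of 4 compounds, known in the labels only by code, that the study compared for their modes of action in rat hepatocytes under a title naming p-dialkoxy chlorobenzenes. The comparison described here set the 3 arrays labelled CDEB against the 3 arrays labelled VC_1, the DMSO control to which the design text assigns CDEB, and so used 6 of the 18 arrays of the series. The cells were thawed primary hepatocytes of male Sprague Dawley rats. All groups had a preculture of 24 h and an exposure of 24 h, to DMSO in VC_1 and VC_2 and to 300 µM of the compound in CDEB, CDMB, DDEB and DDMB. The ages and the number of rats are not given in the sources used here. The design text calls the 3 cultures of a group independent experiments, and nothing says that they came from separate animals, and the tests therefore speak only of how far these particular cultures differed. VC_1 lay on a slide with DDMB and CDEB on a slide with CDMB, so compound and slide cannot be told apart in CDEB against VC_1. DDEB had its own control, VC_2, on a second chip lot. DDEB replicates 1 and 2 shared the slide of VC_2, and DDEB replicate 3 lay on another slide.

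Probes were kept if every CDEB array, or every VC_1 array, read them well above background, and the brightest kept probe stands for a gene. This gave 20887 genes, of which 19921 were well above background on all 6 arrays, 218 entered only through CDEB and 748 only through VC_1. All 32 listed genes of hepatocyte identity were well above background on all 6 arrays. Of listed markers of other cell types, 8 of 12 for stellate cells or fibroblasts, 4 of 9 for endothelial cells, 4 of 11 for macrophages, 3 of 8 for cholangiocytes, 3 of 9 for T or NK cells, 1 of 3 for B cells, 2 of 4 for erythroid cells and 0 of 3 for neutrophils were. The macrophage markers Cd68, Clec4f, Cd14 and C1qb and the endothelial markers Cdh5, Kdr, Vwf and Eng were well above background on all 6. Among those well above background on none of the 6 were the macrophage markers Csf1r, Adgre1 and Cd163 and the endothelial Tek, Stab2 and Lyve1.

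Long fatty acids are broken down in liver mitochondria and peroxisomes, and enzymes of the Cyp4a family oxidise the far end of the chain. In rat liver the nuclear receptor PPARalpha switches on genes of all 3 routes when it binds fatty acids or drugs called peroxisome proliferators, and Cyp4a genes are among its most used readouts. The desaturase gene Scd, whose enzyme places the first double bond in saturated fatty acids, is controlled by several lipid sensors.

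CDEB against VC_1 gave 26 called genes of 20887 (0.124%) at an adjusted p below 0.05 in limma, 14 higher (0.067%) and 12 lower (0.0575%), and 9 of them have a plain gene symbol. The named rises were Scd, Cyp4a3, Cxcl12, which encodes a chemokine, Tln2, which encodes a talin, the glycosyltransferase gene Galnt2 and the peptidase gene Dpp9. The named falls were Ppp1r37, which encodes a regulatory subunit of protein phosphatase 1, the acetyltransferase gene Sat2 and the folliculin gene Flcn. Called changes were small. They ran from -0.90 to 0.73 on the log2 scale and none reached 2-fold, whereas 162 genes differed by 2-fold or more without being called. Of the calls 53.85% were rises, and after normexp background correction 75% of 8 calls were. At an unadjusted p below 0.05 there were 2830 genes, against 1044.4 if none had changed. In 3380 genes (16.2%) all 3 CDEB arrays lay above all 3 VC_1 arrays, and in 2965 (14.2%) all lay below. Above all 6 DMSO arrays of both lots lay 2275 genes (10.9%), and below them 1513 (7.24%). With slide as a random block in the fit, 0 genes were called in limma and 245 lay at an unadjusted p below 0.05.

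**Figure D1:**
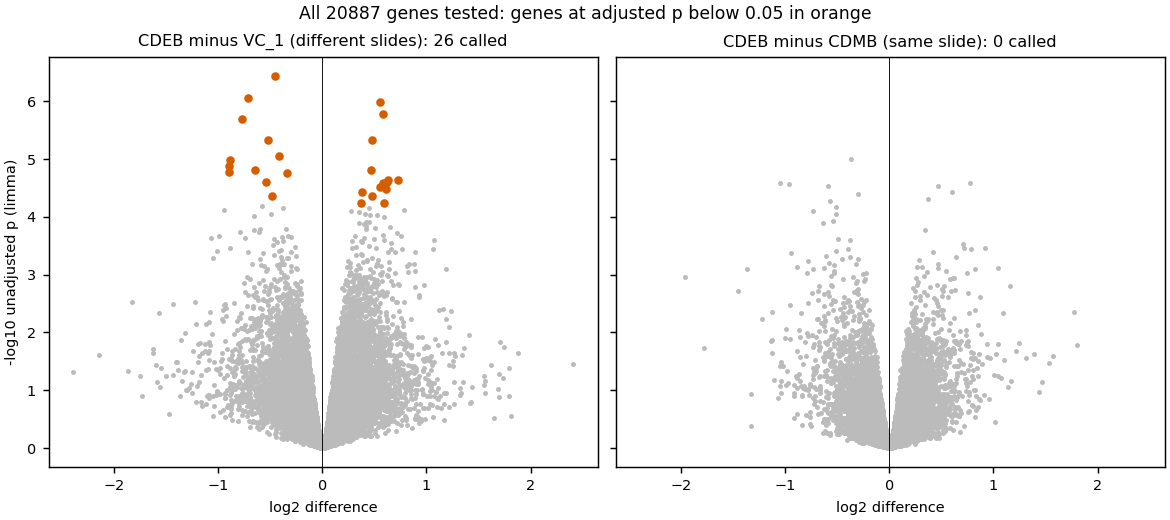
Each point is 1 of the 20887 genes tested, with the log2 difference on the x axis and the -log10 unadjusted p of limma on the y axis, for CDEB minus VC_1 (left) and CDEB minus CDMB (right). The 26 called genes, in orange, lie at moderate differences, while genes with the widest differences have larger p-values, and no gene is called against CDMB.

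The 3 CDEB arrays resembled each other closely (correlations across genes of 0.9975 to 0.9979), and the 3 VC_1 arrays less evenly (0.9897 to 0.9979). The median SD of a gene was 0.0716 in CDEB, 0.0925 in CDMB and 0.143 in VC_1. Replicate 3 of VC_1 differed by more than 1 log2 unit from the mean of the other VC_1 replicates in 728 genes. At those genes, replicate 3 of VC_2 stood off its own group by a median of 1.2 and in the same direction in 99.2%, and replicate 3 of DDEB by 1.02 and in 96.2%. DDEB replicate 3 also lay on another slide than DDEB replicates 1 and 2, and the part of slide in its gap was not tested. The median gap of replicate 3 was 0.140 in CDEB and 0.166 in CDMB. Across genes, which are not independent replicates, the deviations of VC_1 replicate 3 from its group mean correlated at 0.85 with those of VC_2 replicate 3, at 0.56 with DDEB replicate 3 and at 0.69 with DDMB replicate 2, and at no more than 0.11 with any CDEB array. One array in each of VC_1, VC_2, DDEB and DDMB thus shared a pattern that no CDEB or CDMB array showed to that degree. Which arrays share a culture day or an RNA was not stated, so the 6 DMSO arrays may not be 6 separate cultures.

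**Figure D2:**
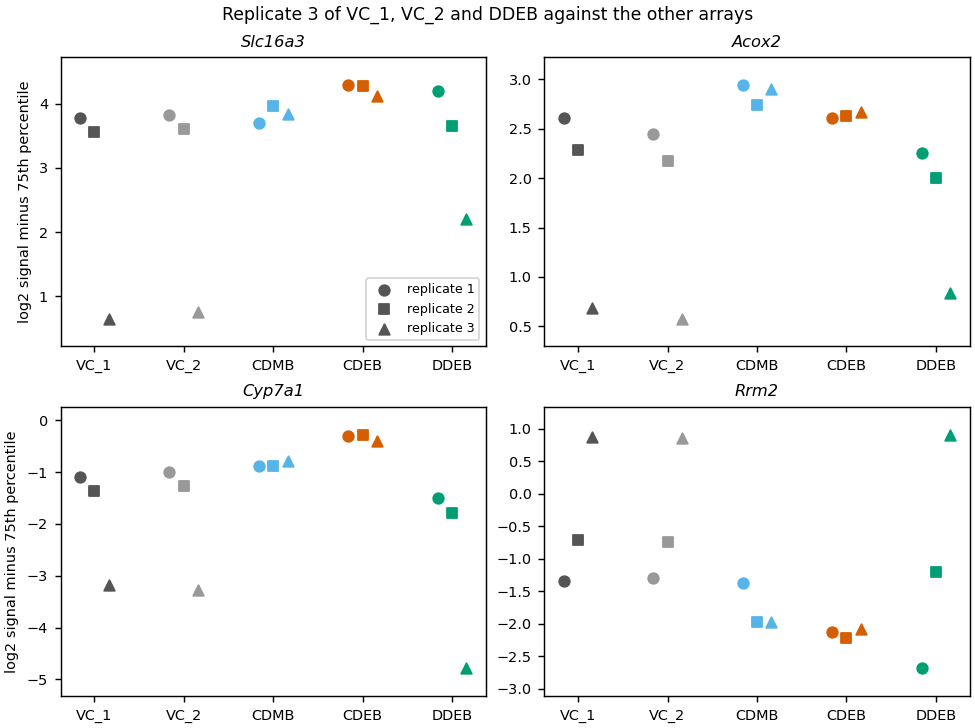
Log2 signal minus the 75th percentile of the array (y axis) of 4 genes in 5 groups, with a marker shape for each replicate number. Replicate 3 (triangles) lies far from replicates 1 and 2 in VC_1, VC_2 and DDEB, and beside them in CDMB and CDEB.

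The fit was repeated without replicate 3 of VC_1, VC_2 and DDEB, a choice made after seeing the data. It called 54 genes against VC_1 (0.259%), 16 higher and 38 lower, of which 17 were among the 26. Of the 9 named genes, Scd, Cyp4a3, Cxcl12, Ppp1r37, Sat2 and Flcn were called again. Newly called with a plain symbol, and named after their values were seen, were rises of Atxn1, Colq, Nim1k and the glutathione transferase gene Gstt2, and falls of Rims3, Gucd1, Ptgfr, Slc25a27, Gga2, Npw and Prpf19. Leaving out 1 array at a time from CDEB or VC_1 called between 0 and 10 genes, with 0 without CDEB replicate 2, and none of the 26 was called in all 6 of these fits.

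Among the 4 Cyp4a genes, Cyp4a3 rose and Cyp4a1 and Cyp4a2 lay in the same direction without being called. The relative signal of Cyp4a3, that is the log2 of its processed intensity minus that of the array's 75th percentile, was 4.14, 4.17 and 3.90 in VC_1 and 4.72, 4.66 and 4.70 with CDEB. The groups did not overlap, and the rise was 0.62 ± 0.10 (log2 ± SE of the fit, n = 3 per group), or 1.54-fold, with an adjusted p of 0.0281 in limma. On CDMB arrays Cyp4a3 read 4.38, 4.21 and 4.31, between DMSO and CDEB. Its second kept probe gave 0.57. Rat Cyp4a3 and Cyp4a2 are near-identical copies, so a probe may read both.

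Cyp4a1, which encodes the best studied rat omega-hydroxylase, read 2.82, 2.81 and 2.89 in VC_1 and 3.61, 3.62 and 3.65 with CDEB. Its difference of 0.79 ± 0.14 was wider than that of Cyp4a3 and missed the threshold (adjusted p = 0.0512, limma). The SE and p draw on the spread in all 6 groups of the fit, not in VC_1 and CDEB alone. Cyp4a1 was not among the genes called without the 3 arrays of replicate 3 either. Its 3 CDMB arrays (3.01, 2.92 and 3.02) lay just above VC_1 and far below CDEB. Cyp4a2 read -1.16, -1.33 and -2.22 in VC_1 and -0.65, -0.63 and -0.83 with CDEB, a difference of 0.87 ± 0.34 (adjusted p = 0.300, limma), with VC_1 replicate 3 lowest of the 6 arrays. Cyp4a8 read 3.21, 3.13 and 2.96 in VC_1 against 3.05, 3.03 and 3.06 with CDEB, and these groups overlapped.

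The promoters of Cyp4a3 and Scd, the called genes of fatty acid metabolism, are shown because both genes answer to lipid sensing receptors that bind repeats of AGGTCA. The sequences are those of RefSeq (build GRCr8), from 250 bases before to 50 bases after the start of the gene, 5′ to 3′. They lie on the minus strand at chr5:134352187-134352486 and chr1:253231682-253231981. Both strands were searched for 2 copies of AGGTCA in direct repeat with 1 base between them, allowing 3 of the 12 fixed bases to differ, and capitals mark the matches. Both lie in Cyp4a3, at -220 to -208 and at -112 to -100 from its start, and each differs in 3 bases.
Cyp4a3: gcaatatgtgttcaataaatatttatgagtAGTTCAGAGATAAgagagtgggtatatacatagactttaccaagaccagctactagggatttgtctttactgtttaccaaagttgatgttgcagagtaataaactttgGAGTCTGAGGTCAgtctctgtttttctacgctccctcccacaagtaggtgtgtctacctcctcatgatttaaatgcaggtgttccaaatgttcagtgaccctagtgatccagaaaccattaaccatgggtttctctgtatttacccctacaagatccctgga
Scd: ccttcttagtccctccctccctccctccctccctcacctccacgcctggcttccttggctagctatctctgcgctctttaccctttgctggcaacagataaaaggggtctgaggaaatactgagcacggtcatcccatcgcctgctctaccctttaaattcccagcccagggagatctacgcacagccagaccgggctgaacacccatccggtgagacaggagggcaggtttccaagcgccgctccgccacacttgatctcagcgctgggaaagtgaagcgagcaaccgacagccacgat
Cyp4a3 held 2 such matches and Scd 0 in this window. A match this loose was common, with 24.9% of 33469 rat promoters of the same length holding at least 1, so it is a description of the letters and no more.

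Peroxisomal oxidation genes lay higher with CDEB without a single call. Of 26 genes tested, 16 had CDEB arrays wholly above VC_1 and 0 wholly below, or 61.5% against 16.2% of all genes, and the median log2 difference was 0.25 against 0.01. Ehhadh, the bifunctional enzyme of the middle steps, read -0.28, -0.27 and -0.38 in VC_1 and 0.12, 0.19 and 0.25 with CDEB, a difference of 0.50 ± 0.10 (adjusted p = 0.0774, limma). Decr2, which removes awkward double bonds, read 1.50, 1.41 and 1.23 against 1.95, 1.82 and 1.87, with 0.50 ± 0.10 (adjusted p = 0.0696). In both genes the 2 groups were well apart. Acox2, of the bile acid side chain branch, had a difference of 0.78 ± 0.57, with VC_1 replicate 3 at 0.69 and the others at 2.61 and 2.28. The median of the list was 0.19 without VC_1 replicate 3 and 0.04 against CDMB.

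Mitochondrial oxidation genes lay higher as well, again with 0 calls in limma. All 19 genes tested had a positive difference, as did 51.47% of all genes. In 14 of the 19 (73.7% against 16.2% of all genes) the CDEB arrays lay wholly above VC_1. The median was 0.21, or 0.17 without VC_1 replicate 3. Etfdh, which passes electrons from fatty acid oxidation to the respiratory chain, read 3.37, 3.44 and 3.30 in VC_1 and 3.74, 3.70 and 3.67 with CDEB, a difference of 0.33 ± 0.09. Acad11 (0.48 ± 0.17), Hadh (0.40 ± 0.16) and Acaa2 (0.38 ± 0.13) had the other leading values. For Cpt1a, the gate of fatty acid entry, the value was 0.23 ± 0.21 and the arrays overlapped. Against CDMB the list's median was 0.05, and CDMB arrays shared the slide of CDEB. The 45 tested genes of the respiratory chain and ATP synthase, by comparison, had a median of 0.05 against VC_1.

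**Figure D3:**
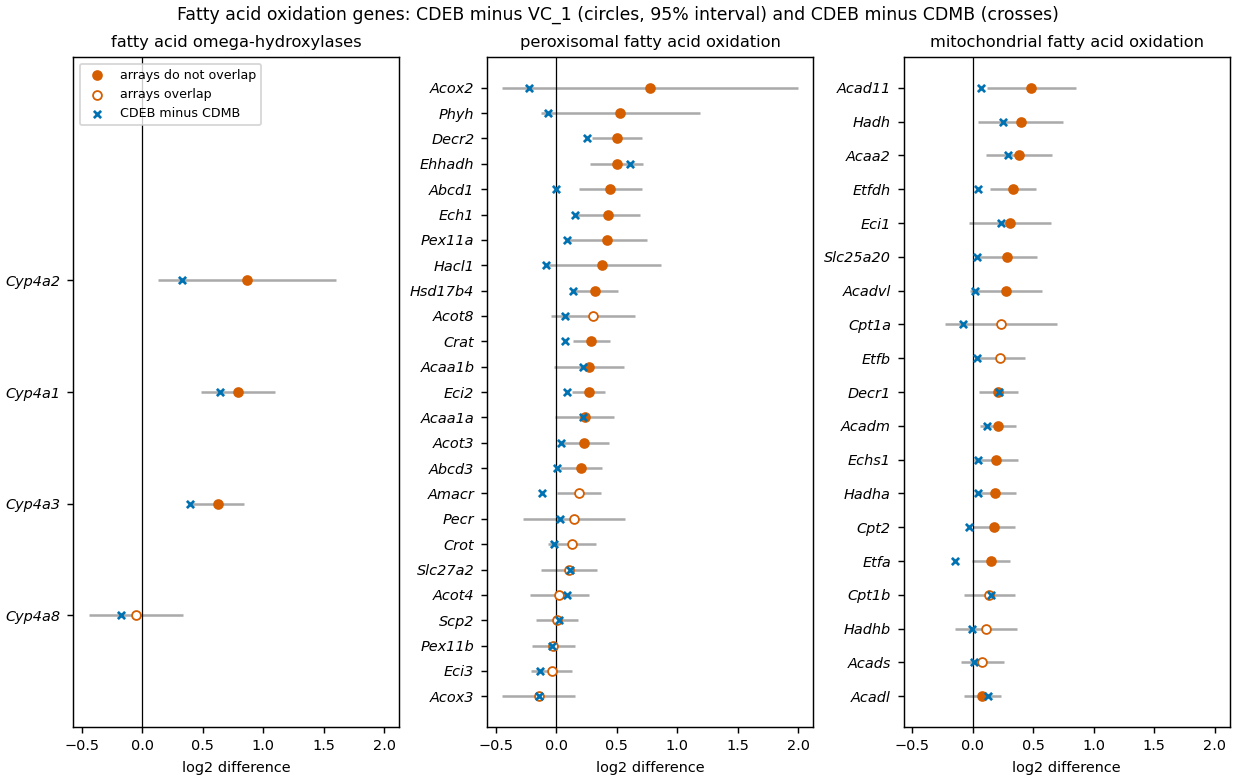
Log2 differences (x axis) of genes of 3 fatty acid oxidation lists, as CDEB minus VC_1 with its 95% interval (circles, filled where CDEB and VC_1 arrays lay fully apart) and as CDEB minus CDMB (crosses). Cyp4a1, Cyp4a3 and Ehhadh keep most of their difference against CDMB, whereas the crosses of most mitochondrial genes lie near 0.

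Other targets of PPARalpha in lipid handling were mixed. Of 29 tested, 9 had CDEB wholly above VC_1 (31.0% against 16.2% of all genes) and 0 wholly below, with a median of 0.11. Ucp2, a mitochondrial carrier, read -2.95, -2.54 and -2.66 in VC_1 and -1.89, -2.13 and -2.15 with CDEB, a difference of 0.66 ± 0.16 (adjusted p = 0.140, limma) with no overlap. The lipid droplet gene Plin5 had 0.67 ± 0.23. Pdk4, which holds back the entry of pyruvate into the citric acid cycle and is a common marker of the receptor, had 0.01 ± 0.13, and Fgf21 (0.70 ± 0.45) overlapped between groups.

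Scd rose in all 3 CDEB cultures. It read 6.46, 6.46 and 6.25 in VC_1 and 6.98, 6.95 and 6.91 with CDEB, while CDMB arrays lay at 6.60, 6.58 and 6.62. The rise was 0.56 ± 0.07, or 1.47-fold (adjusted p = 0.00725, limma). Of 22 tested genes of fatty acid synthesis and desaturation, Scd was the only one wholly above VC_1 (4.55% against 16.2% of all genes). Another 2 lay wholly below (9.09% against 14.2%). The median of this list was 0.08, or -0.03 without VC_1 replicate 3. Fads1 had -0.51 ± 0.34 and Elovl6 -0.34 ± 0.27. Of 26 cholesterol genes, 3 lay wholly above and 7 wholly below (26.9% against 14.2% of all genes), with -0.38 ± 0.12 for Insig1, which holds back sterol synthesis. Of both lists only Scd passed the test.

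The other 4 named rises had no common list. Cxcl12, a chemokine that draws cells carrying the receptor CXCR4, read -0.97, -0.89 and -1.34 in VC_1 and -0.47, -0.43 and -0.47 with CDEB. It rose by 0.61 ± 0.10 (adjusted p = 0.0330, limma), and its other probe gave 0.28. On the VC_2 arrays Cxcl12 was lower again (-1.37, -1.43 and -1.57). Of the 16 tested genes of its list, the chemokines and NF-kappaB targets, Cxcl12 was the only call, and Ccl20 (-1.56 ± 0.85) lay on the other side of 0.

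Tln2, which ties integrins to the actin skeleton, read -2.11, -2.06 and -2.23 in VC_1 and -1.73, -1.65 and -1.60 with CDEB, and rose by 0.47 ± 0.07 (adjusted p = 0.0262, limma). Galnt2, which starts mucin-type O-glycans, read 1.37, 1.47 and 1.42 against 1.75, 1.84 and 1.79, a rise of 0.38 ± 0.06 (adjusted p = 0.0353). Both genes were clear of all DMSO arrays. Dpp9, a cytosolic dipeptidyl peptidase, read 3.48, 3.50 and 3.34 against 3.79, 3.80 and 3.83. Its rise was 0.37 ± 0.07 (adjusted p = 0.0462, limma), and a second probe of Dpp9 gave 0.07. Without the 3 arrays of replicate 3 none of the 3 was called, with differences of 0.42 for Tln2 (adjusted p = 0.0557, limma), 0.38 for Galnt2 (adjusted p = 0.0610) and 0.32 for Dpp9 (adjusted p = 0.0775).

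Sat2, named as a relative of the polyamine acetyltransferase Sat1, read 0.85, 0.78 and 0.86 in VC_1 and 0.41, 0.37 and 0.34 with CDEB, a fall of 0.45 ± 0.05 on the log2 scale, with VC_1 1.37-fold above CDEB (adjusted p = 0.00725, limma). CDMB (0.68, 0.66 and 0.69) and VC_2 (0.63, 0.62 and 0.65) lay between. Of 11 tested genes of polyamine metabolism Sat2 was the only call, and Smox (0.54 ± 0.22) lay the other way.

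Ppp1r37 read -1.50, -1.51 and -1.51 in VC_1 and -2.27, -2.19 and -2.21 with CDEB. The fall was 0.71 ± 0.09 on the log2 scale, with VC_1 1.64-fold above CDEB (adjusted p = 0.00725, limma). It rests on 1 kept probe, and the difference ran from -0.87 to -0.36 over 21 alternative settings. Flcn, which acts at the lysosome on the Rag switch of mTORC1, read 4.12, 4.10 and 4.03 against 3.64, 3.75 and 3.63 and fell by 0.41 ± 0.06 (adjusted p = 0.0235). No array overlapped in either gene. Gga2, a clathrin adaptor, sat just outside the threshold at -0.38 ± 0.07 (adjusted p = 0.0502), a gene named after its value was seen. Flcn was the only call among 33 tested genes of lysosome and autophagy, whose median was -0.05.

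**Figure D4:**
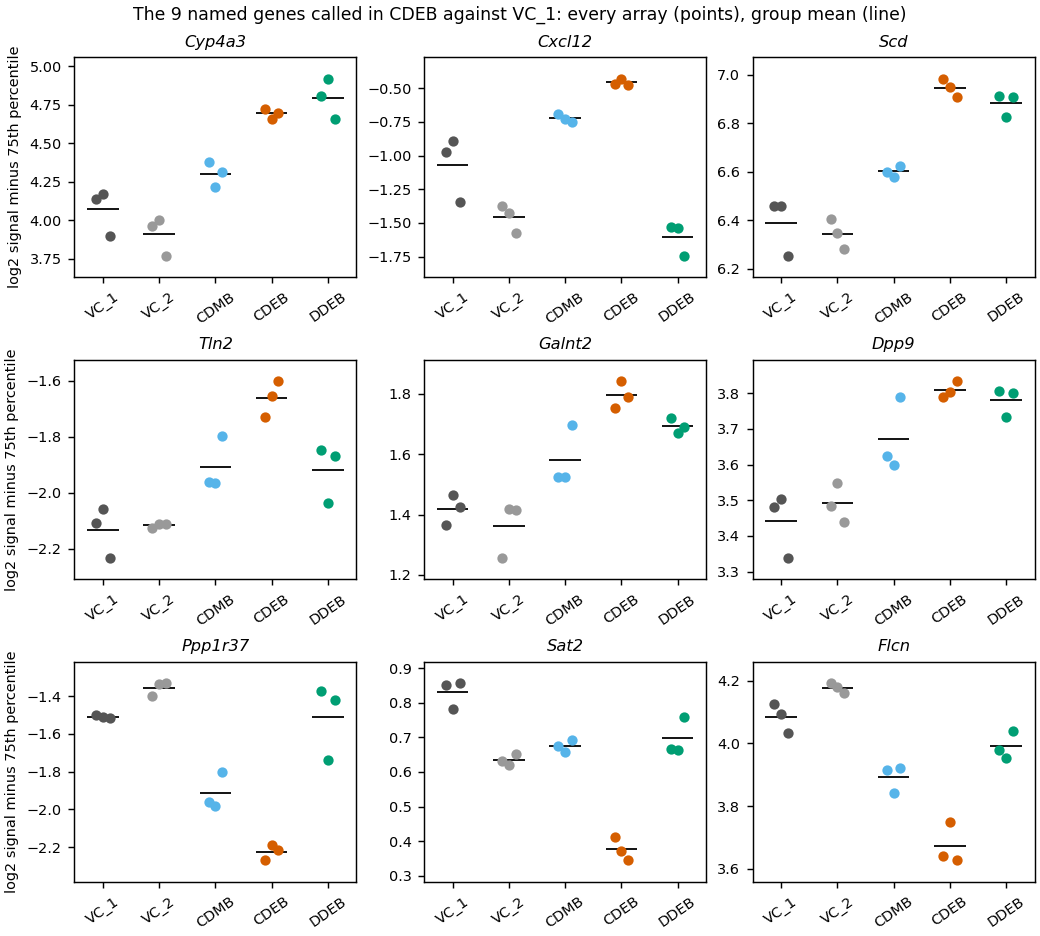
Log2 signal minus the 75th percentile of the array (y axis) of the 9 named genes called in CDEB against VC_1, for every array of 5 groups (points) with the group mean (line). CDMB lies between VC_1 and CDEB in all 9 panels, and DDEB lies near CDEB for Cyp4a3, Scd, Galnt2 and Dpp9 and far from it for Cxcl12, Sat2 and Ppp1r37.

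The other 17 called features carry no plain symbol in the reference used, 8 of them higher and 9 lower. The firmest of these was ENSRNOT00000017818, at -4.25, -4.15 and -4.35 in VC_1 and -4.97, -5.03 and -5.07 with CDEB, a change of -0.77 ± 0.10 (adjusted p = 0.00839, limma). It is a dim probe, and after another background correction its difference was 0.15.

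Larger differences than those called were not past the test. Among genes with arrays that did not overlap were Elfn1 (1.88 ± 0.73), the lactate exporter Slc16a3 (1.56 ± 0.92) and Zap70 (1.56 ± 0.79). Apln, a secreted peptide of vessels, read -2.52, -3.07 and -6.62 in VC_1 against -1.67, -1.43 and -1.89 with CDEB. Like Prdm1, Prkcb and Ndufa4l2 it was well above background on 2 of 3 VC_1 arrays, so the size of these 4 differences is not fixed. In Slc16a3 VC_1 arrays read 3.78, 3.56 and 0.65, against 4.28, 4.27 and 4.12 with CDEB.

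On the negative side were the ribonucleotide reductase gene Rrm2 (-1.75 ± 0.84) and Cdca3 (-1.58 ± 0.81). Rassf9, Map2 and Elk3 also lay lower with CDEB, but were well above background on 1 of 3 CDEB arrays, so no size is given for them. Plscr2, Fgf13 and Tnn were well above background on all VC_1 arrays and no CDEB array, and were at least 2.42-fold, 1.96-fold and 1.31-fold lower by the bound that the dimmest detected probes allow. None of these 8 was called. Rrm2 read -1.34, -0.71 and 0.87 in VC_1 and -2.13, -2.22 and -2.09 with CDEB, and the gap to the lowest DMSO array was narrower than the spread within DMSO.

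Cell cycle genes had a median of -0.39 over 32 genes, with 17 wholly below VC_1 (53.1% against 14.2%) and 3 wholly above, and the median was -0.14 without VC_1 replicate 3 and -0.01 against CDMB. That array alone stood 0.47 above its group on this list and 0.26 below it on hepatocyte identity. Hepatocyte identity genes had a median of 0.23, 0.10 without that array and -0.01 against CDMB. Urea cycle and amino acid genes went from 0.20 to 0.08, the circadian clock from 0.24 to 0.11, and acute phase, coagulation and complement from 0.20 to 0.04. None of these lists had a called gene.

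Hypoxia response and glycolysis genes lay higher with CDEB, without a call. Of 17 hypoxia genes, 13 lay wholly above VC_1 (76.5% against 16.2% of all genes) and 1 wholly below (5.88% against 14.2%), with a median of 0.32, or 0.22 without VC_1 replicate 3 and 0.15 against CDMB. Higd1a, a mitochondrial protein of this response, read 0.47, 0.37 and -0.55 in VC_1 and 0.87, 0.84 and 0.61 with CDEB (0.68 ± 0.27). Of 26 glycolysis genes, 12 lay wholly above (46.2%) around a median of 0.26, or 0.13 without that array and 0.05 against CDMB. Pfkl, the liver phosphofructokinase, read 1.49, 1.53 and 1.17 against 2.02, 2.07 and 2.08, a difference of 0.66 ± 0.14 (adjusted p = 0.0821, limma) that CDMB arrays (1.87, 1.88 and 2.19) shared.

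**Figure D5:**
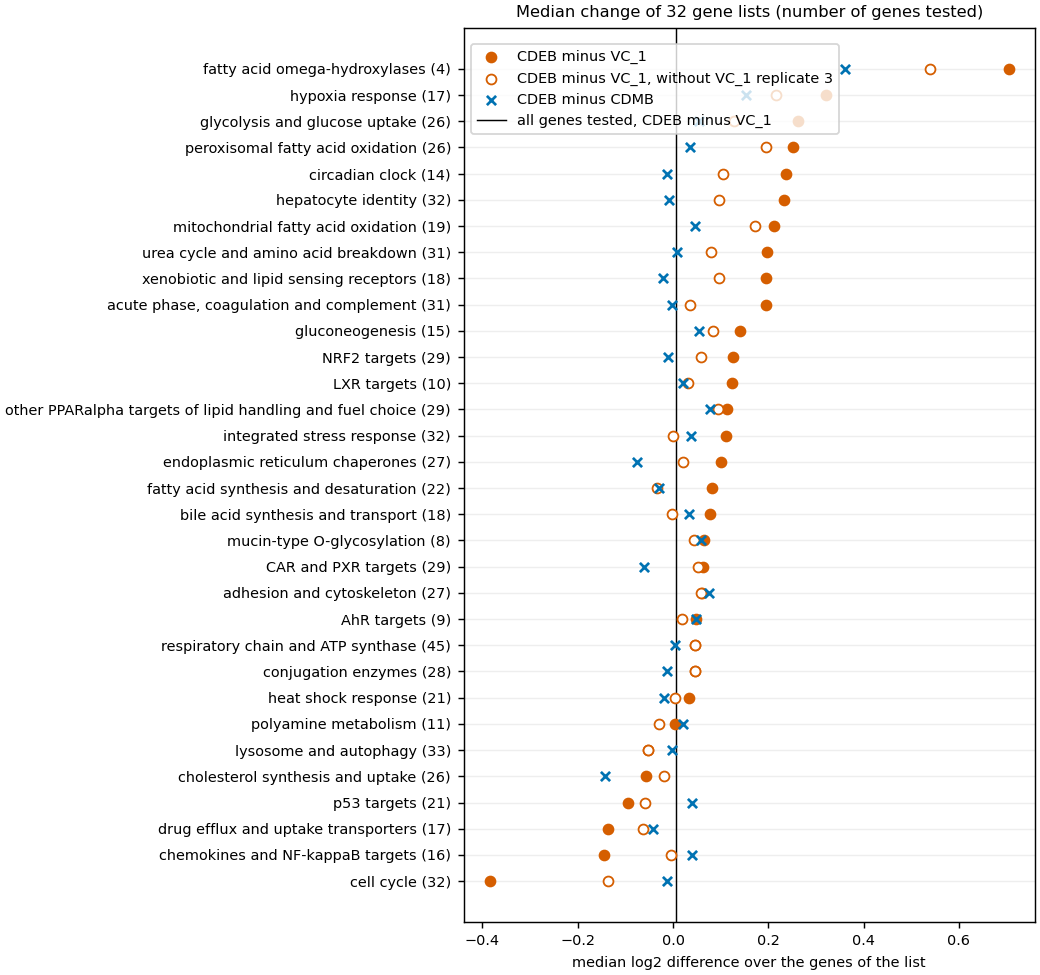
Median log2 difference (x axis) of 32 gene lists with the number of genes tested, as CDEB minus VC_1 (filled), the same without VC_1 replicate 3 (open) and CDEB minus CDMB (crosses), with the median of all genes as a line. The omega-hydroxylase list keeps the largest value in all 3, while cell cycle, hepatocyte identity and the circadian clock move towards 0 in the open symbols and crosses.

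None of the tested targets of CAR and PXR, AhR or NRF2 was called. CAR and PXR are nuclear receptors through which many drugs raise P450 genes. In 29 of their tested targets, 7 lay wholly above VC_1 (24.1% against 16.2% of all genes) and 4 wholly below (13.8% against 14.2%), with a median of 0.06, and Cyp3a23-3a1, the classic PXR gene, had 0.23 ± 0.10. In 9 targets of the dioxin receptor AhR the median was 0.05. Cyp1a1 had 1.03 ± 0.64, from 3.40, 3.08 and 1.23 in VC_1 to 3.73, 3.59 and 3.50 with CDEB, with VC_1 replicate 3 far below the rest, and Cyp1a2 had 0.21 ± 0.23. In 29 targets of NRF2, the sensor of oxidants, 7 lay wholly above (24.1%) and 2 below (6.9%), and the median of 0.13 became 0.06 without VC_1 replicate 3. Nqo1 had -0.10 ± 0.14, Hmox1 0.71 ± 0.60 and Gclc 0.46 ± 0.29, and without that array 0.02, 0.07 and 0.15. All of these lists had 0 calls in limma.

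Stress and damage lists had no called gene. The 21 targets of p53 had a median of -0.09, with 4 wholly above (19.0% against 16.2% of all genes) and 5 wholly below (23.8% against 14.2%). Cdkn1a had 0.60 ± 0.25, Phlda3 -0.56 ± 0.15, Bax -0.45 ± 0.17 and Mdm2 -0.16 ± 0.07. The 32 genes of the integrated stress response had 0.11, and 0.00 without VC_1 replicate 3, with 9 wholly above (28.1%) and 2 below (6.25%), and with -0.23 ± 0.08 for Atf3 and -0.09 ± 0.20 for Ddit3. Of 27 chaperones of the endoplasmic reticulum 11 lay wholly above (40.7%) and 1 below (3.7%), with a median of 0.10, or 0.02 without that array and -0.08 against CDMB. The 21 heat shock genes had a median of 0.03. Cyp7a1, the first enzyme of bile acid synthesis, had 1.55 ± 0.82, from -1.09, -1.36 and -3.18 in VC_1 to -0.31, -0.28 and -0.39 with CDEB, and Alb, the albumin gene, had 0.23 ± 0.14. Neither passed the test. Among the remaining lists, the medians were 0.12 for LXR targets, 0.14 for gluconeogenesis, 0.08 for bile acid genes and 0.05 for conjugation enzymes. They were -0.14 for drug transporters, 0.06 for O-glycosylation, 0.06 for adhesion and cytoskeleton and 0.00 for polyamines. For the lipid and xenobiotic receptors the median was 0.20, with 15 of 18 genes positive and 3 negative. Ppara had 0.66 ± 0.40, Nr1i3 0.61 ± 0.42 and Hnf4a 0.48 ± 0.25. Against CDMB these genes had -0.03, -0.07 and -0.07, in that order. Without VC_1 replicate 3 the medians were 0.03 for LXR targets, 0.08 for gluconeogenesis, -0.0018 for bile acid genes, -0.06 for drug transporters and 0.10 for the receptors.

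CDEB was then set against CDMB, the compound on the same slide at the same dose. In limma 0 of 20887 genes were called (0%), with 973 at an unadjusted p below 0.05 and a smallest adjusted p of 0.102. Arrays did not overlap in 4153 genes (19.9%). The middle 95% interval reached 0.27 to either side of the difference. This fit pooled the spread of all 6 groups, with a mean variance of 0.025 in CDEB, 0.039 in CDMB and 0.147 in DDEB. With only the 6 CDEB and CDMB arrays in limma, 0 genes were called and 2743 lay at an unadjusted p below 0.05. Of the 26 calls against VC_1, 23 had the same sign against CDMB, and 18 had CDEB arrays wholly beyond the CDMB arrays. In 22 of the 26 the CDMB arrays were themselves wholly beyond VC_1 in the same direction. The 26 were chosen on these same CDEB and VC_1 arrays, so these counts are no independent check. No share over all genes is given for the count of 22. The difference was 0.64 for Cyp4a1 (95% interval 0.34 to 0.95), 0.61 for Ehhadh (0.39 to 0.82), 0.39 for Cyp4a3 (0.18 to 0.61), 0.35 for Scd (0.20 to 0.49) and -0.30 for Sat2 (-0.41 to -0.19). For Dpp9 it was 0.14 and for Gga2 -0.14.

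Without the 3 arrays of replicate 3 named above, which belong to neither group, CDEB against CDMB gave 17 calls (0.0814%), 5 higher and 12 lower. At an unadjusted p below 0.05 in limma lay 1849 genes. Of the 17 calls, 4 have a plain symbol, named here after their values were seen. Scd was higher by 0.35 ± 0.05 (adjusted p = 0.0497, limma), Sat2 lower at -0.30 ± 0.04 (adjusted p = 0.0346), the kinase gene Nim1k higher by 0.57 ± 0.08 and the collagen cross-linking gene Loxl2 higher by 0.78 ± 0.11. In the same fit 10 of the 17 were also called in the same direction against VC_1.

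Values of DDEB against its own control VC_2 stand beside those of CDEB for the leading genes. The difference from control was 0.79 with CDEB and 1.02 with DDEB for Cyp4a1, 0.62 and 0.88 for Cyp4a3, 0.56 and 0.54 for Scd, and 0.50 and 0.65 for Ehhadh, in that order, and DDEB was called for all 4. The difference of the effects was called in 2 genes (0.00958%), with a chip lot, a slide and a control group that differ too. For Scd the difference was 0.02 ± 0.10. Sat2 had -0.45 with CDEB and 0.06 with DDEB, a difference of -0.52 ± 0.07 (adjusted p = 0.0479, limma). Cxcl12 had 0.61 with CDEB and -0.14 with DDEB, a difference of 0.76 ± 0.14 that was not called (adjusted p = 0.339).

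The controls of the 2 lots differed from each other in 4270 genes (20.4%), and 5 of the 26 calls were among them. Same-numbered arrays of VC_1 and VC_2 deviated together (correlations across genes of 0.69, 0.52 and 0.85). Over the 6 DMSO arrays alone, 3230 genes were called in limma and 10620 with the replicate number as a block, both chosen after seeing the data. Of the 26, 25 had CDEB arrays outside all 6 DMSO arrays, and the VC_1 arrays among them had a part in choosing the 26. The signal of a dim spike-in was 1.21% to 1.28% of that of a bright one on CDEB arrays, 1.23% to 1.32% on CDMB, 1.98% to 2.04% on VC_1 and 1.73% to 1.83% on VC_2. DDEB replicates 1 and 2, on the slide of VC_2, read 1.09% and 1.18%, and DDEB replicate 3, on another slide, read 1.66%. DDMB arrays, on the slide of VC_1, read 1.78% to 2.02%. Summed marker signal, in units of the array's 75th percentile, was 2.52 to 2.78 in CDEB and 2.50 to 3.62 in VC_1 for stellate cells or fibroblasts, 10.6 to 11.7 and 8.44 to 10.1 for endothelial cells, and 8.09 to 8.65 and 3.67 to 8.71 for macrophages. For cholangiocytes it was 6.71 to 7.22 in CDEB, wholly below 7.38 to 8.40 in VC_1. Their markers Krt19 and Spp1 were dim on all 6 arrays, and Epcam, Sox9 and Slc4a2 were well above background on all 6. For B cells it was 0.788 to 0.833, wholly above 0.606 to 0.682, with Cd79b dim and Pax5 well above background on all 6 arrays. For T or NK cells it was 6.75 to 9.82 and 6.03 to 8.49, for erythroid cells 1.83 to 2.05 and 1.71 to 1.85, and for neutrophils, with every marker dim, 0.0172 to 0.0211 and 0.0130 to 0.0159. The part of spike-in level and of these markers in the results was not tested.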

How the data were processed

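The samples were 18 Agilent one-colour arrays (Cy3), 3 in each of 6 groups. Per the file headers, Feature Extraction 10.7.1.1 read the spot intensity, and the deposited processed intensity is corrected for background within the array; the array design names build rn4. The authors' deposited table for the VC_1 lot holds signal on a linear scale with no statement of its scaling. At 10702 probes above 1 it equalled a constant times the scanner value over the array's 75th percentile (100% within 1%), with column medians of 0.045 to 0.051, and it served as an alternative. The log2 values fitted here were computed from the deposited intensity, averaged over unflagged spots of a probe, minus the array's 75th percentile, which lay between 421 and 640; 435 of 45598 probes flagged on an array were left out. Probes were named by accession through the RefSeq gene table (GRCr8), which named 21102, and 24496 kept their accession. No spot was saturated. Precision is limited by the number of arrays.

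The model, run in limma 3.58.1 (R 4.3.3), held 6 group means over all 18 arrays (12 residual degrees of freedom), with Benjamini-Hochberg adjustment over all genes. The fit was tested on simulated data. Text genes are the called ones with a plain symbol, the 8 widest uncalled non-overlapping ones each way, up to 4 leading members of each list, and a fixed set; any other is named as chosen after its values were seen. A few genes that this rule names are not reported here. Members and lists were chosen with earlier results of these data known. Replicate numbers were checked as pairs: deviations of same-numbered CDEB and VC_1 arrays correlated at 0.22, -0.03 and 0.11, so no pairing was used for them; same-numbered VC_1 and VC_2 arrays did deviate together, which the model leaves out. Alternatives were the filter, scaling, normexp background correction (offset 50, on median spot signals, as no mean signal was at hand), the authors' table, arrays in the fit, slide as a random block, a replicate block, the rule for several probes, and leaving out each array.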

Additional observations from a re-analysis of the deposited data

Results flagged for a closer look

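In 2 genes the effect of CDEB over VC_1 differed from the effect of DDEB over VC_2 by the test of the difference itself, in limma over all genes. Sat2 differed by -0.52 ± 0.07 (log2 ± SE, adjusted p = 0.0479), from -0.45 with CDEB and 0.06 with DDEB, and all 3 CDEB arrays lay below all DDEB and DMSO arrays. ENSRNOT00000017818 differed by -1.27 ± 0.14 (adjusted p = 0.00712), from -0.77 with CDEB and 0.50 with DDEB. Chip lot, slide and control group differ between these effects and cannot be told apart from the compound.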

How the results depend on the processing

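The number of called genes was not stable. Against VC_1 it was 26, and it became 6 with no filter on dim probes, 0 with each array minus its median, 8 with normexp, 8 with the authors' deposited table, 0 with only the 6 arrays compared, 0 with slide as a random block, 5881 with VC_2 as control and 2878 with the mean of both controls. Leaving out 1 array gave 0 to 10. For CDEB against CDMB it was 0, and 0 to 1 when 1 array was left out. For the effect of CDEB minus that of DDEB it was 2, and became 8 with no filter, 1 with probes well above background in any group, 0 with the median, with normexp and with the slide block, 1 with every probe on its own, and 1 to 5 when 1 array was left out. With the replicate block the counts were 57 (26 of them shared), 0 and 1. In that check of pairing, 2 of 3 CDEB arrays correlated best with their own number. Chosen after seeing the data, the fit of 12 arrays of one chip lot gave 8 against VC_1, and leaving out the 3 arrays of replicate 3 gave 54, 17 and 4. ENSRNOT00000017818 had 0.15 with normexp in place of -0.77. The cause was not tested in any of these. The 9 named calls kept their sign in every alternative run, but not their call. In the 6 fits that left out 1 CDEB or VC_1 array, Scd and Sat2 were called in 5 and Ppp1r37 in 4. Cyp4a3, Cxcl12, Tln2, Galnt2, Dpp9 and Flcn were called in 0 of these 6, and in 5 to 9 of all 21 alternatives. Of alternative list medians 407 stayed within the spread and 41 moved. Genes not well above background on every array have no firm size.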
